A study of Mus musculus with 5 samples.

Results

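The imprinted growth genes described here are 10 genes of parent-of-origin regulation that act on fetal growth: H19, Igf2, Meg3, Dlk1, Peg3, Cdkn1c, Grb10, Mest, Plagl1 and Igf2r. They were chosen by name, and every probe set whose only gene symbol is one of them was read. This gave 30 of 45101 probe sets, for 9 of 18193 genes. H19 had no probe set with it as the only symbol, so no value is given for it. The arrays came from newborn mouse ovaries that lack Lhx8, a homeobox gene expressed in oocytes, and from wild type ovaries, and the comparison asks which transcripts differ when the gene is missing. The Lhx8 null group had 3 arrays (replicates 1, 2 and 3) and the wild type group 2 (replicates 2 and 3). All animals were female, at postnatal day 0.5, of a C57/BL6/129SVEV hybrid background. Each array carried the RNA of a pool of 50 ovaries, from at least 25 animals, so a replicate is a pool and the spread is that between pools. Whole ovaries were taken, and in such tissue fewer cells of a type and less RNA per cell cannot be told apart.

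An imprinted gene is transcribed mainly from the copy inherited from one parent, because a methylation mark laid down in the egg or the sperm silences the other copy or its control region. Most lie in clusters in which a long non-coding RNA and protein-coding genes share such a region. In mice, genes active on the paternal copy tend to favour fetal growth and genes active on the maternal copy tend to restrain it, and many are strongly expressed in fetal mesenchyme and decline after birth. The parental marks are erased in primordial germ cells and maternal marks are laid down later, in growing oocytes, while somatic cells keep the parental pattern. The arrays measured transcripts and do not tell the parental copies apart.

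Of the 9 member genes, 7 were higher in Lhx8 null ovaries, none was lower and 2 missed the threshold, which was a Benjamini-Hochberg adjusted p of 0.05 over 10916 genes in a two-sided limma fit. Of all genes tested 25.5% were higher and 22.3% lower, 47.8% in either direction. The median log2 difference, null minus wild type, was 0.85 over the members and 0.04 over all genes tested. Cdkn1c rose 3.47-fold and Dlk1 2.36-fold, and Grb10, Meg3, Plagl1, Igf2 and Mest rose between 1.38-fold and 1.98-fold. Igf2r and Peg3 did not pass. After normalisation the null arrays lay above the wild type arrays for all 9, but 67.8% of all genes tested also had groups that did not overlap. For Igf2r the nearest arrays were almost level, at 9.955 in null and 9.944 in wild type replicate 2, and its deposited signals overlapped. A rise of 2-fold or more was called for 2 members, where 8.88% of all genes tested had one and 8.16% had a fall of that size. By parental copy, 4 of the 5 paternally expressed members (Igf2, Dlk1, Mest and Plagl1, but not Peg3) and 3 of the 4 maternally expressed members (Meg3, Cdkn1c and Grb10, but not Igf2r) rose, with medians of 0.83 and 0.95. Differences are on the scale log2(signal + 16) after quantile normalisation, and each gene is represented by its brightest probe set.

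**Figure D1:**
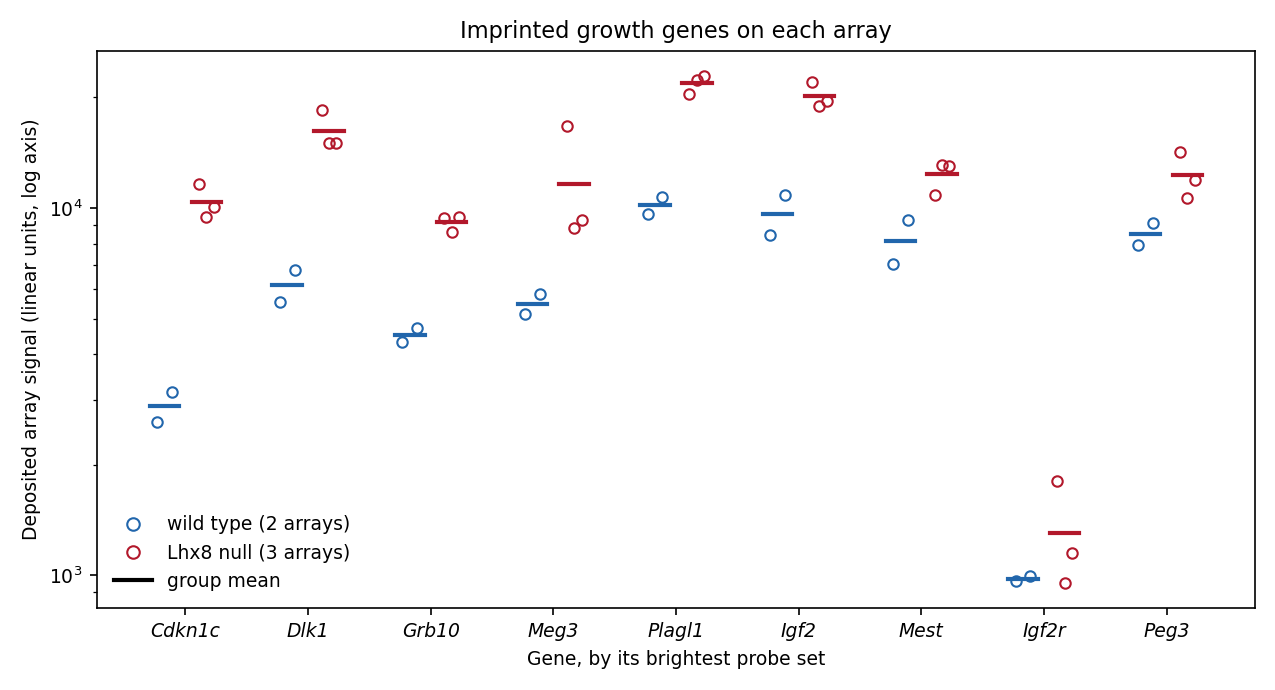
Deposited array signal (linear units on a log axis) of the brightest probe set of each of the 9 member genes, with open circles for single arrays, bars for group means, wild type in blue (2 arrays) and Lhx8 null in red (3 arrays). Every gene but Igf2r has all null circles above the wild type circles, and the gap is widest for Cdkn1c, with null signals of at least 9475.3 against at most 3157.6.

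The sources of these transcripts in the genome help to read the values, and RefSeq start sites (assembly GRCm38.p6) were available for 8 of the members, as 15 windows of the 250 bases before a start. Each was searched for TGCCGC on both strands, the other strand reading GCGGCA, which is the core of the sequence that the imprint-protecting zinc finger protein ZFP57 binds when its CpG is methylated. It was found in 4 windows of 3 genes (Meg3, Plagl1 and 2 largely overlapping windows of Mest), and in 8.68% of all 32851 promoter windows. The 5 windows below are shown because their genes rose, and because they contrast starts with and without the motif. Matches are in capitals, and a match is a description of the letters, not a bound site. They belong to Dlk1 (chr12:109452573-109452822, plus strand), Meg3 (chr12:109540746-109540995, plus strand), Grb10 (chr11:12037421-12037670, minus strand), Plagl1 (chr10:13090582-13090831, plus strand) and Mest (chr6:30737800-30738049, plus strand), all written 5′ to 3′ on the strand of the gene.
Dlk1: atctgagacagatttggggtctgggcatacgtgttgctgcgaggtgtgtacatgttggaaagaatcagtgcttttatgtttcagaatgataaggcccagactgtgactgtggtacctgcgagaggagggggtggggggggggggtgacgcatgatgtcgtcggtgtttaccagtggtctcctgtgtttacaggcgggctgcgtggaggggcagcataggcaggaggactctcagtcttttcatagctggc
Meg3: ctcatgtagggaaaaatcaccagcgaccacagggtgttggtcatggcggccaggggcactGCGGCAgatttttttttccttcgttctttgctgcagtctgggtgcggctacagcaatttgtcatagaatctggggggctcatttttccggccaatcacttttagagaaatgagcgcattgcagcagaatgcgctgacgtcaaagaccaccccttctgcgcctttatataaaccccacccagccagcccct
Grb10: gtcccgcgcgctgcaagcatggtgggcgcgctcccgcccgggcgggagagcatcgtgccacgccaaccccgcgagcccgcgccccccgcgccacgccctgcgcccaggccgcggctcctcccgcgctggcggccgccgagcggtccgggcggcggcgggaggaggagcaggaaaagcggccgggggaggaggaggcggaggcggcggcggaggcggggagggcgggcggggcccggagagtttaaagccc
Plagl1: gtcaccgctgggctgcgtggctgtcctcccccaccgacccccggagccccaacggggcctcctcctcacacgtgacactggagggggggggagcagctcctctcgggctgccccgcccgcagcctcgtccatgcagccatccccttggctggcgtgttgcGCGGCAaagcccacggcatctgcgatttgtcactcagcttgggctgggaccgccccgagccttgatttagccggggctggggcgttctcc
Mest: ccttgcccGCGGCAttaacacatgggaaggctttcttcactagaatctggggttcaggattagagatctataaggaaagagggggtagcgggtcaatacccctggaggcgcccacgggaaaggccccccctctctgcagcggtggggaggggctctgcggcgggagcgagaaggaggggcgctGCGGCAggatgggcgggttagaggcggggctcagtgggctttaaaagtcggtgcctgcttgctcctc
The windows differed widely in CpG content. The Grb10 window shown held 40 CpG pairs, more than 98.7% of all promoter windows, that of Plagl1 19, that of Mest 14, that of Meg3 10 and that of Dlk1 8, where the median of all windows was 6. Other windows of the same genes held fewer or as many, with 8 in the second of Grb10, 0 in the second of Meg3, and 7 and 14 in the other 2 of Mest. The single windows of Igf2r and Peg3 held 27 and 8, and the 4 Igf2 windows held between 1 and 22.

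Igf2, the fetal growth factor that signals through the IGF1 and insulin receptors, rose in Lhx8 null ovaries. Its signal was 21967.1, 18991.1 and 19554.5 in null replicates 1, 2 and 3 and 10825.7 and 8424.1 in wild type replicates 2 and 3. All null arrays were above both wild type arrays, with means of 20171 ± 1581 (SD, n = 3) and 9625 ± 1698 (SD, n = 2). The log2 difference was 0.83 (SE 0.12, 95% interval 0.56 to 1.10, adjusted p = 0.000577), a 1.78-fold rise. A second probe set of Igf2 was dim, at most 233.6 on any array. Its groups overlapped, and its log2 difference of 0.24 (95% interval -0.58 to 1.06) did not pass. With the probe sets averaged, Igf2 rose by 0.54.

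Igf2r encodes the mannose 6-phosphate receptor that carries IGF2 to the lysosome and so limits its supply. Its brighter probe set had signals of 1811.2, 956.7 and 1153.5 in null replicates 1 to 3 and 995.9 and 964.3 in wild type replicates 2 and 3. Null replicate 2 was below both wild type arrays in signal, so the groups overlapped. The log2 difference was 0.41 (SE 0.24, 95% interval -0.13 to 0.95, adjusted p = 0.184), and without null replicate 1, the highest array, it was 0.15. The other probe set had 0.32 and overlapping groups, so a difference in Igf2r was not detectable here, while the interval allows one of nearly 2-fold.

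Airn, the non-coding transcript that is read from the paternal copy across the Igf2r start and silences that copy of Igf2r, is the next gene in the RefSeq order. Its signal was 695.5, 1071 and 1003 in the null replicates and 541.6 and 525.3 in the wild type replicates, with no overlap. It rose by 0.75 log2 units (SE 0.20, adjusted p = 0.0147), a call lost with each array centred on its median (0.50, adjusted p = 0.0978) and when wild type replicate 2 (adjusted p = 0.0794) or replicate 3 (adjusted p = 0.0902) was left out.

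Grb10, an adaptor protein that binds the activated insulin and IGF1 receptors and dampens their signal, rose at its brightest probe set. The null arrays had 9376.8, 8626.6 and 9474.9 and the wild type arrays 4727.6 and 4304, so in deposited signal every null array was well clear of both controls. After normalisation the nearest arrays were null replicate 2, at 13.00, and wild type replicate 2, at 12.20, in log2 units. The null arrays averaged 9159 ± 464 (SD, n = 3) against 4516 ± 300 (SD, n = 2), and the log2 difference was 0.98 (SE 0.10, 95% interval 0.75 to 1.22, adjusted p = 0.000119). This was a 1.98-fold rise with the least spread between null pools, relative to the mean, of the member genes. The other Grb10 probe sets did not follow. One had signals of 771.2, 387 and 661.1 in null and 559.9 and 706.3 in wild type ovaries and a log2 difference of -0.11 (95% interval -0.75 to 0.53), and the other had 0.22. Averaged over its 3 probe sets Grb10 had a difference of 0.36 (adjusted p = 0.157), which did not pass.

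The gene listed just after Grb10 in the RefSeq order is LOC102631979, an uncharacterised long non-coding RNA gene. Its probe set had signals of 888.7, 465.2 and 449.6 in null and 26.4 and 64.9 in wild type ovaries. The log2 difference of 3.19 (SE 0.36, adjusted p = 0.000164) was larger than that of any member. The wild type signals were below the brightness cutoff of 149.97, so this fold depends on the added constant and was 2.48 with 64 in place of 16. Whether the probe set reads a separate transcript or an unspliced form of Grb10 was not tested.

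Plagl1 encodes a zinc finger transcription factor, also called ZAC1, that restrains cell division and regulates other imprinted genes. Signals were 20388.6, 22308.8 and 22844.4 in null and 10731.3 and 9603.1 in wild type ovaries. In deposited signal no null array came near the wild type range, the averages being 21847 ± 1291 (SD, n = 3) against 10167 ± 798 (SD, n = 2). After normalisation the nearest arrays were null replicate 1, at 14.16, and wild type replicate 2, at 13.49, in log2 units. The log2 difference was 0.85 (SE 0.10, 95% interval 0.63 to 1.08, adjusted p = 0.00018), a 1.81-fold rise. This probe set carries the suffix _x_at, which the array maker gives to probe sets that can cross-hybridise with other transcripts. The next brightest Plagl1 probe set, without that suffix, had 385.1, 595.1 and 591.7 in null against 405.4 and 406.5 in wild type ovaries, and the groups overlapped. With probe sets of suffix _x_at or _s_at left out, a choice made after the data were seen, Plagl1 had 0.28 (adjusted p = 0.326) and its call was lost. The third probe set was dim (at most 205) and had 1.27, with a wide interval of -0.08 to 2.63.

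Peg3, a large zinc finger protein of the paternal copy with roles in growth and maternal behaviour, gave mixed values. Its brightest probe set had 14227.7, 10645.1 and 11934.3 in null and 9085.3 and 7922.3 in wild type ovaries, with no overlap. The log2 difference of 0.35 (SE 0.13, 95% interval 0.06 to 0.65, adjusted p = 0.0510) just missed the threshold. The second brightest had overlapping groups and 0.21. The third lay the other way, with 3286.5, 3043.1 and 3252.1 in null below 4219.8 and 3537.6 in wild type ovaries, at -0.24 (95% interval -0.52 to 0.04). Thus 2 bright probe sets of the same gene, both without overlap, pointed in opposite directions, and neither passed. The last 2 probe sets never exceeded 16.4 and 6 and carry no information on the gene. They still count in the average over its probe sets, at -0.53 and -0.17. The Peg3 call depended on the processing: it passed with the deposited scaling alone (0.52, adjusted p = 0.0123) or without null replicate 2 (0.44, adjusted p = 0.0247), and narrowly under 3 others (adjusted p = 0.0471 to 0.0498), and its sign turned, at -0.077, when the probe sets were averaged.

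Cdkn1c had the largest log2 difference of the 9 member genes. It encodes p57KIP2, an inhibitor of cyclin-dependent kinases that holds cells out of division and is needed in many differentiating fetal tissues. Signals were 11613.7, 9475.3 and 10029.9 in null and 3157.6 and 2621.8 in wild type ovaries, and the lowest null array exceeded the highest wild type array about 3-fold. They averaged 10373 ± 1110 (SD, n = 3) against 2890 ± 379 (SD, n = 2). The log2 difference was 1.80 (SE 0.13, 95% interval 1.49 to 2.10, adjusted p = 1.91e-05), a 3.47-fold rise. It passed under every alternative tried, with values from 1.59 to 1.96. Cdkn1c had 1 probe set.

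Kcnq1ot1, the non-coding RNA of the paternal copy that silences Cdkn1c and its neighbours on that chromosome, is the nearest tested gene to Cdkn1c in the RefSeq order. It had 895.8, 681.1 and 529.1 in null and 111.5 and 221.8 in wild type ovaries, again without overlap. It rose by 1.89 log2 units (SE 0.29, adjusted p = 0.000808), so the maternally expressed gene and the paternally expressed silencer of this cluster were both higher in null ovaries. Tssc4 and Cd81 of the same cluster rose by 0.60 and 0.35, calls lost with median centring (adjusted p = 0.0837 and 0.129) and without either wild type array.

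Among the other CDK inhibitors and cell cycle genes, 10 of 15 rose and 1 fell, with a median of 0.58. Over all genes tested 25.5% were higher and 22.3% lower. Cdkn1b, which encodes the related inhibitor p27KIP1, was the one that fell, by 1.08 log2 units (SE 0.12, adjusted p = 0.000171), from 2746.5 and 2948.6 in wild type to 1213.3, 1339.5 and 1306 in null ovaries. Cdkn1a, of the same inhibitor family, rose by 1.17 (SE 0.24). The proliferation marker Mki67 rose by 1.77 (SE 0.13), from 1722.6 and 1676.6 to 6186.9, 6032.4 and 5081.9, and the topoisomerase gene Top2a by 1.20 (SE 0.12) and the cyclin gene Ccne1 by 1.48 (SE 0.17). Cdkn1c thus rose beside Mki67 and Top2a, while Pcna, Cdk1, Cdk2 and Ccne2 did not pass. With arrays centred on their medians 7 of the 15 rose and 2 fell.

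Dlk1 encodes a membrane protein with EGF-like repeats, related to NOTCH ligands, that marks immature mesenchymal and preadipocyte cells. Its brighter probe set, of suffix _s_at, had 18514, 15039 and 14990.5 in null and 6770.5 and 5546.8 in wild type ovaries. In deposited signal all null arrays were more than 2-fold above both controls, with means of 16181 ± 2020 (SD, n = 3) and 6159 ± 865 (SD, n = 2). After normalisation the gap between the nearest arrays was smaller, at 13.73 in null replicate 2 against 12.78 in wild type replicate 2, in log2 units. The log2 difference was 1.24 (SE 0.13, 95% interval 0.95 to 1.53, adjusted p = 0.000104), a 2.36-fold rise. The other Dlk1 probe set, though much dimmer, moved the same way. It had 405.1, 267.9 and 291.1 in null and 79.5 and 70.7 in wild type ovaries, a difference of 1.70 (adjusted p = 0.00309 in the fit over all probe sets). Dlk1 is therefore the member with more than 1 probe set for which every one passed, and its call held under every alternative tried.

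Meg3, the maternally expressed long non-coding RNA of the same cluster as Dlk1, had 11 probe sets. The brightest, like that of Plagl1, carries the suffix _x_at. It had 16689.3, 8826.2 and 9245.8 in null and 5826.8 and 5146.3 in wild type ovaries. Null replicate 1 stood far above the other null arrays, but all 3 were above both controls, at 11587 ± 4424 (SD, n = 3) on average against 5487 ± 481 (SD, n = 2). The log2 difference was 0.91 (SE 0.23, 95% interval 0.39 to 1.43, adjusted p = 0.0104), a 1.88-fold rise. Without null replicate 1 it was 0.62 and still passed (adjusted p = 0.000926), whereas without wild type replicate 3 the call was lost (0.84, adjusted p = 0.108), as it was with probe sets averaged (0.69, adjusted p = 0.0642). The 6 Meg3 probe sets above the brightness cutoff had differences from 0.61 to 1.30, and null replicate 1 was the highest array on each of them. The brightest one without the suffix _x_at or _s_at had 1.02 and groups that did not overlap. It missed the threshold in the fit over all probe sets (adjusted p = 0.0705). The 5 below the cutoff ran from -0.72 upwards. In the fit over all probe sets 2 passed: the brightest, and a dim one with 306.5, 120.9 and 132.8 in null against 4.3 and 22.1 in wild type ovaries, with adjusted p = 0.00769. The wild type signals of the dim one were far below the cutoff, so its log2 difference depends on the added constant, at 1.54 with 64, 2.60 with 16 and 3.71 with 1. Without wild type replicate 2 neither passed in that fit (adjusted p = 0.122 for the brightest and 0.0725 for the dim one). The brightest also did not pass there without wild type replicate 3 (adjusted p = 0.213) or without a variance trend (adjusted p = 0.125).

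Rian and Mirg, non-coding RNAs that follow Meg3 in this cluster and are read from the maternal copy, rose too. Rian had 1661.1, 1288.7 and 1672.4 in null and 432.9 and 576.1 in wild type ovaries, a log2 difference of 1.60 (SE 0.18, adjusted p = 0.000164). Mirg had 738.6, 340.8 and 456.7 in null and 204.5 and 171.9 in wild type ovaries and rose by 1.20 (SE 0.29, adjusted p = 0.00826). As for Meg3, null replicate 1 was the highest for Mirg, and the Mirg call was lost with probe sets averaged (adjusted p = 0.0592) and without wild type replicate 3 (adjusted p = 0.0819). The cluster therefore had Dlk1, of the paternal copy, and 3 non-coding RNAs of the maternal copy all higher in null ovaries.

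Mest, a paternally expressed gene for a hydrolase-like protein of the endoplasmic reticulum that is strongly expressed in fetal mesoderm, showed the smallest rise among the members that passed. Signals were 10867.2, 13094.9 and 13035.7 in null and 9247.2 and 7046.9 in wild type ovaries. The groups did not overlap, but the wild type arrays differed from each other by more than the gap between the nearest arrays of the groups. The averages were 12333 ± 1269 (SD, n = 3) against 8147 ± 1556 (SD, n = 2), and the log2 difference was 0.47 (SE 0.14, 95% interval 0.16 to 0.78, adjusted p = 0.0204). The call was lost in the fit over all probe sets (adjusted p = 0.0592), with median centring (0.36, adjusted p = 0.132), without a variance trend (adjusted p = 0.0609), and without null replicate 2 (adjusted p = 0.0553), null replicate 3 (adjusted p = 0.0505) or wild type replicate 3 (0.25, adjusted p = 0.170). Cep41 and Copg2, the nearest tested genes on its 2 sides, had -0.66 (adjusted p = 0.0150) and -0.28 (not passed), so the rise of Mest was not shared by them. The Cep41 call was lost without null replicate 2 and without either wild type array, and Copg2 passed with median centring (-0.55, adjusted p = 0.0343).

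**Figure D2:**
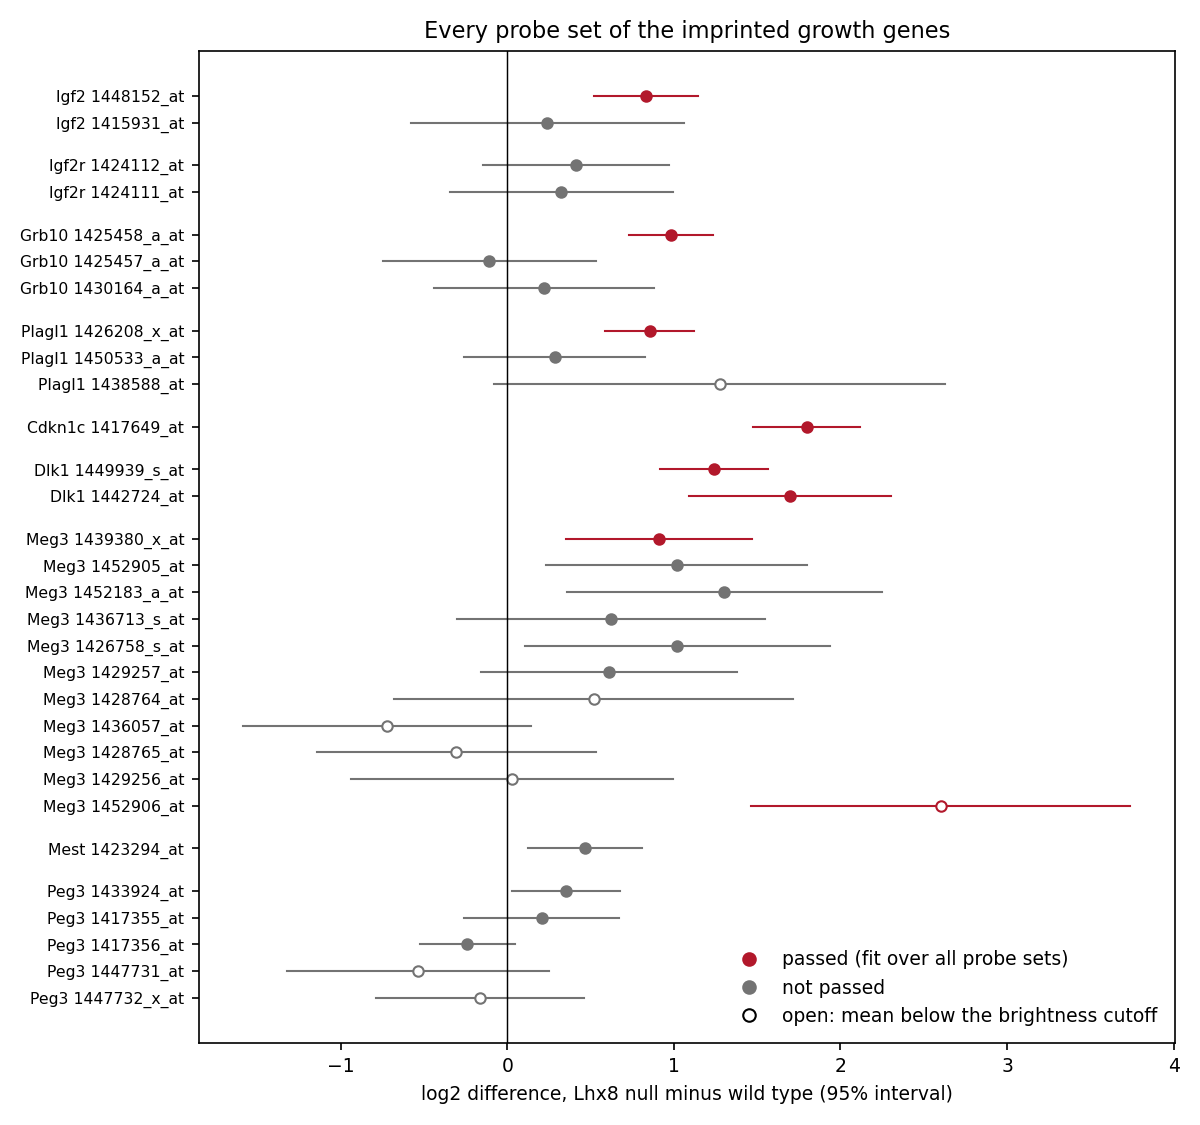
Log2 difference, Lhx8 null minus wild type, with its 95% interval, for each of the 30 probe sets of the 9 measured members. Red marks the 8 that passed in the fit over all probe sets and open circles those below the brightness cutoff, and Dlk1 has both of its probe sets in red while Grb10 and Plagl1 have 1 of 3 each.

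Read probe set by probe set, 8 of the 30 passed, all higher, where 10.7% of all probe sets were called higher and 10.3% lower, 21.0% in all. They belonged to Igf2, Grb10, Plagl1, Cdkn1c, Dlk1 (both) and Meg3 (2). The groups did not overlap for 18 of the 30, against 49.5% of all probe sets. Of the 22 above the brightness cutoff 7 passed, and of the 8 below it 1 did. The matching shares of all probe sets above and below the cutoff were not computed, so these counts have no background here. For Igf2, Grb10 and Plagl1 the brightest probe set passed and the dimmer ones did not, both passed for Dlk1, and none passed for Peg3 or Igf2r. No member probe set was called lower, except that the Peg3 one with lower null signals was called, at -0.52 (adjusted p = 0.0317), when arrays were centred on their medians.

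Measured members also host microRNAs, which the arrays did not measure. RefSeq places 7 mature microRNAs on the strand of their host within Igf2, Meg3 and Mest, and they are shown because these host transcripts rose. The seed, bases 2 to 8, is in capitals, and all 7 seeds differ. miR-483 lies in Igf2, miR-770 and miR-1906 in Meg3, and miR-335 in Mest.
miR-483-3p: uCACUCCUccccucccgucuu
miR-483-5p: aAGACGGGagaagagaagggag
miR-770-3p: cGUGGGCCugacguggagcugg
miR-770-5p: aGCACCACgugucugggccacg
miR-1906: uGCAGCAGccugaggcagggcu
miR-335-3p: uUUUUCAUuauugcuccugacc
miR-335-5p: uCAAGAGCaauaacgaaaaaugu
A higher host transcript does not give the level of the mature microRNA, and none is claimed here.

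Other imprinted genes moved both ways. Of 13 other paternally expressed imprinted genes tested, 5 rose and 1 fell, with a median of 0.13. Over all genes tested 25.5% were higher and 22.3% lower. Nnat, a small membrane proteolipid gene, rose by 1.42 (SE 0.15, adjusted p = 0.000128), with 2125.7, 1863.4 and 1751.8 in null and 814.5 and 631.7 in wild type ovaries. Ndn, which encodes a growth suppressor of the MAGE family, rose by 0.75 and Gnas, a stimulatory G protein gene whose main transcript is read from both copies in most tissues, by 0.47. Kcnq1ot1 and Airn were the others, and Mcts2 had -0.53 (adjusted p = 0.0159), a call lost without null replicate 2 or either wild type array. With probe sets averaged Ndn (0.39, adjusted p = 0.0607) and Gnas (0.39, adjusted p = 0.198) did not pass, nor did Gnas without wild type replicate 3 (adjusted p = 0.0822). With arrays centred on their medians 4 rose, 3 fell and the median was -0.18, close to that of all genes tested under the same scaling.

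Of 19 other maternally expressed imprinted genes 6 rose and 3 fell, with a median of 0.26. Over all genes tested 25.5% were higher and 22.3% lower. When genes bright enough in either group were kept, 21 of the list were tested, and 6 rose and 5 fell. With median centring 4 rose and 5 fell (median 0.05), with probe sets averaged 4 rose and 3 fell (median -0.013), and without wild type replicate 3 or replicate 2 only 3 or 4 rose and 1 fell. Several of these are imprinted mainly in placenta. Gatm, an enzyme of creatine synthesis, fell by 2.35 log2 units (SE 0.16, adjusted p = 1.1e-05), with 874.8, 658.9 and 881 in null against 4247.6 and 4185.7 in wild type ovaries. Besides Rian, Mirg, Tssc4 and Cd81, the paraoxonase gene Pon2 rose by 1.30 (SE 0.23) and Dcn, the gene of the matrix proteoglycan decorin, by 0.59 (SE 0.10). The Pon2 call was lost with probe sets averaged (0.52, adjusted p = 0.107). Pon3 and Trappc9 had -0.89 and -0.49, and both calls were lost without either wild type array, that of Trappc9 also without any single null array. Among members of the list too dim on average to be tested, Th, the tyrosine hydroxylase gene, fell in the fit without a brightness filter from 845 ± 33.9 (SD, n = 2) to 32.2 ± 9.45 (SD, n = 3). Slc22a18, a transporter gene near Cdkn1c, rose from 5.75 ± 1.91 (SD, n = 2) to 101 ± 12.1 (SD, n = 3). These 2 were named after their values were seen.

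**Figure D3:**
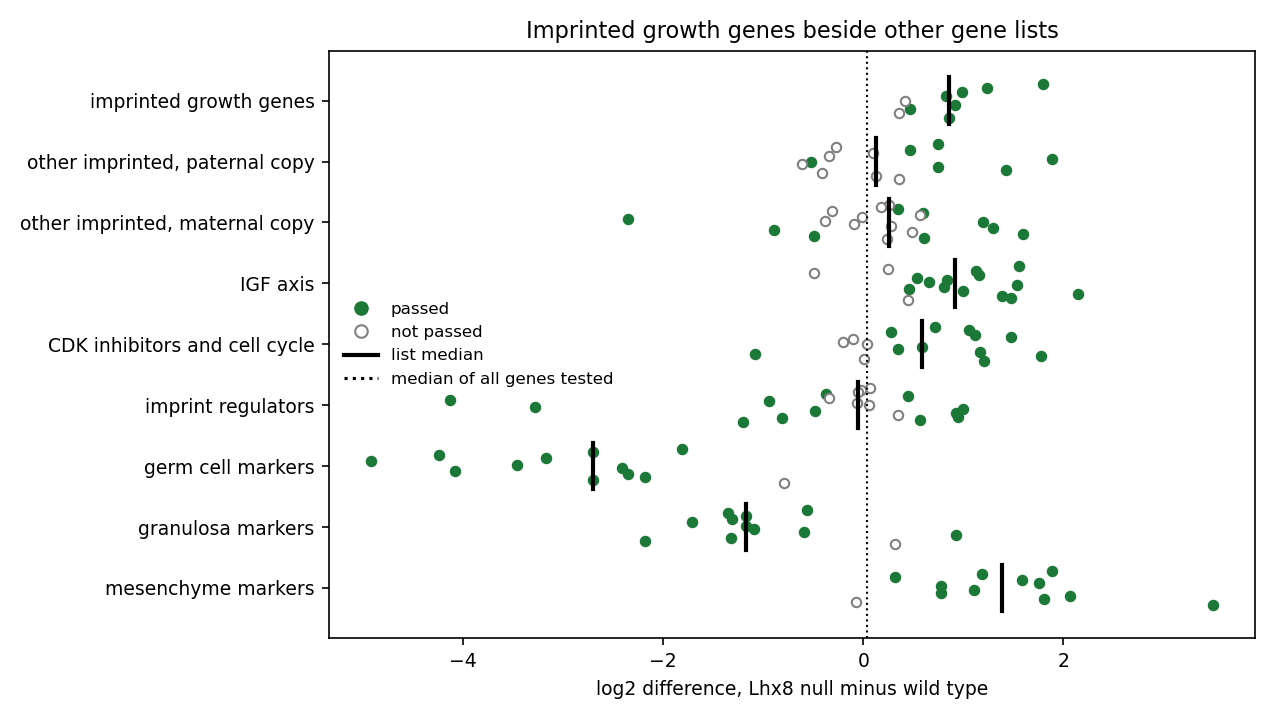
Log2 difference, Lhx8 null minus wild type, of each tested gene in 9 lists, filled where it passed and open where it did not, with bars for list medians and a dotted line for the median of all genes tested (0.04). The 9 imprinted growth genes all lie right of the line (median 0.85), the other imprinted genes lie on both sides (medians 0.13 and 0.26), and the germ cell markers lie to the left (median -2.70).

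The IGF axis, in which Igf2, Igf2r and Grb10 act, was mostly higher in null ovaries. Of 16 other genes of the axis tested, 13 rose, none fell and 3 did not pass, with a median of 0.91. Over all genes tested 25.5% were higher and 22.3% lower. Igf1, the other ligand, rose by 1.55 (SE 0.10, adjusted p = 1.1e-05), with 10827, 12553.5 and 11615.3 in null and 3540.1 and 4116.9 in wild type ovaries. Among the binding proteins, Igfbp6, Igfbp2 and Igfbp4 rose by 1.53, 1.15 and 0.83, and among the proteases that cleave them Pappa2 rose by 1.47. The receptor substrate genes Irs4 and Irs1 rose by 2.14 and 0.99. Wild type signals of Irs4 (77.4 and 96.4) and Pappa2 (107.2 and 115.7) were below the brightness cutoff of 149.97. These genes passed the filter through their null signals, as did Pappa and Igf2bp1, which also rose. Igf1r, the receptor through which both ligands act, had 0.25 and did not pass, with 2967.6, 2675.3 and 3000.8 in null and 2392.7 and 2643.6 in wild type ovaries, and its sign turned with median centring, to -0.053. Neither Igf1r nor Igf2r passed. The binding protein genes Igfbp1 and Igfals and the substrate gene Irs2 were too dim to be tested. With median centring 10 rose and 1 fell, and with single arrays left out 9 to 12 rose.

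Genes that set or protect imprints moved both ways, with 5 of 19 higher, 7 lower and a median of -0.05, where 25.5% of all genes tested were higher and 22.3% lower. Dppa3, an oocyte factor that guards DNA methylation in the early embryo, fell by 4.14 log2 units (SE 0.19), from 19439.3 and 20954.7 in wild type to 1693.2, 1068.8 and 1393.3 in null ovaries. Kdm1b, the histone demethylase that oocytes need to lay down maternal imprints, fell by 3.29 (SE 0.25). Eed, a Polycomb subunit, and Zfp57 fell by 0.94 and 1.20. Mbd3 and Trim28, the corepressor that ZFP57 recruits, rose by 0.99 and 0.95. With median centring 3 of the list rose and 8 fell, with a median of -0.34. Dppa3 and Kdm1b thus fell in the same arrays in which members such as Cdkn1c and Dlk1 rose, and a relation between these changes was not tested.

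Genes next to the members did not share one direction, where 25.5% of all genes tested were higher and 22.3% lower. Of the 11 nearest genes tested in the RefSeq order, looking at most 3 genes away on each side, 6 rose, 2 fell and 3 did not pass. The 6 comprise Airn, Kcnq1ot1, LOC102631979 and 3 entries that are members themselves, namely Igf2 beside H19 and Dlk1 and Meg3 beside each other. Next to Plagl1, Ltv1 fell by 0.61 (SE 0.12, adjusted p = 0.00369) and Sf3b5 had -0.27, which did not pass but did with median centring (-0.47, adjusted p = 0.0144). Mrpl23, near H19, had 0.22, which did not pass and was -0.079 with median centring. Peg3 had no tested neighbour within that distance.

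The profile of each member over the 5 arrays was compared with every other tested gene by Euclidean distance between centred log2 values. Krt7, a keratin gene of simple epithelia, lay closest to Cdkn1c, at a distance of 0.0585 with a log2 difference of 1.80, and Myo1c lay closest to Dlk1 (0.0931). Ncdn was closest to Igf2 (0.0621), Clcn5 to Meg3 (0.178), Pfkl to Grb10 (0.0801), Maged1 to Mest (0.0835), Slc30a7 to Plagl1 (0.0723), Rwdd4a to Peg3 (0.0314) and Atg2a to Igf2r (0.145). The second nearest were Tubb4a, Fntb, Paxx, Snord104, Col6a2, Thap12, Hoxc6, Keap1 and Fam160b2 in the same order of members. Among the members themselves Igf2 and Grb10 were the most alike (0.222) and Peg3 and Cdkn1c the least (1.59). With 5 arrays such distances rest largely on the size of the difference between groups.

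Facts of the whole series bear on these values. Lhx8 had 332.6, 159 and 347.4 in null and 6450.1 and 5223.1 in wild type ovaries, and fell by 4.45 log2 units (SE 0.29, adjusted p = 1.09e-05), the direction the labels give, though where its probe set lies relative to the deletion is not stated in the labels. Hybridisation controls differed by group, with the null arrays 2.12 times as bright as wild type for BioC and 1.90 times for Cre, and the Actb 3′ to 5′ ratio was 1.48 to 1.69 on null and 1.39 to 1.43 on wild type arrays. Pairs of null arrays correlated at 0.960 to 0.974 over probe sets, the wild type pair at 0.970, and pairs of different groups at 0.905 to 0.931. The labels name no hybridisation or scan batch, so any batch that follows the groups cannot be told apart from genotype. Cell type markers also differed, some lists falling and others rising, where 25.5% of all genes tested were higher and 22.3% lower. Of 12 germ cell markers 11 fell and none rose (median -2.70), and their summed signal was 8566 to 13372 in null against 74643 to 78469 in wild type ovaries. Of 12 granulosa markers 10 fell and 1, Lgr5, rose (median -1.17, summed signal 18874 to 21847 against 30882 to 34029). Of 12 mesenchyme markers 11 rose and none fell (median 1.39, summed signal 125672 to 143887 against 52910 to 65952). Markers of smooth muscle (9 of 9), tract epithelium (9 of 10), mesothelium (9 of 10), endothelium (7 of 9) and macrophages (8 of 9) also rose, with medians of 2.05, 2.75, 1.77, 0.87 and 1.63. Of the steroidogenic markers 1 rose and 2 fell of 3 tested, and 5 were too dim to test. Erythroid markers rose in 1 of 4 cases. Without null replicate 3 this was 3 of 4, and without null replicate 2 there was 1 rise and 1 fall. Adipose markers rose in 2 of 3 cases, and 3 were too dim. Both tested skeletal muscle markers rose, and 6 were too dim. The summed signal of that list was 619 to 2714 in null against 360 to 406 in wild type ovaries. At a threshold of 0.01 neither passed, and without null replicate 3 none was bright enough to test. No marker signal was at 0 on any array, but some were far below the brightness cutoff of 149.97, such as Adipoq at 1.3 in null replicate 3. The part of cell makeup and of the control difference in the rise of the members was not tested.

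Array scaling touches every difference. With each array centred on its median in place of quantile normalisation, the median of all genes tested moved from 0.04 to -0.18 and higher genes made up 33.5% of calls in place of 53.4%. Under that scaling 6 members rose and none fell, with a median of 0.77, and all 9 lay above the median of all genes. With the deposited scaling alone 8 rose. Over all 17 alternatives between 5 and 8 of the 9 members were called higher and none lower. Leaving out 1 array gave 5 to 7, with 5 without wild type replicate 3, when Meg3 and Mest did not pass.

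**Figure D4:**
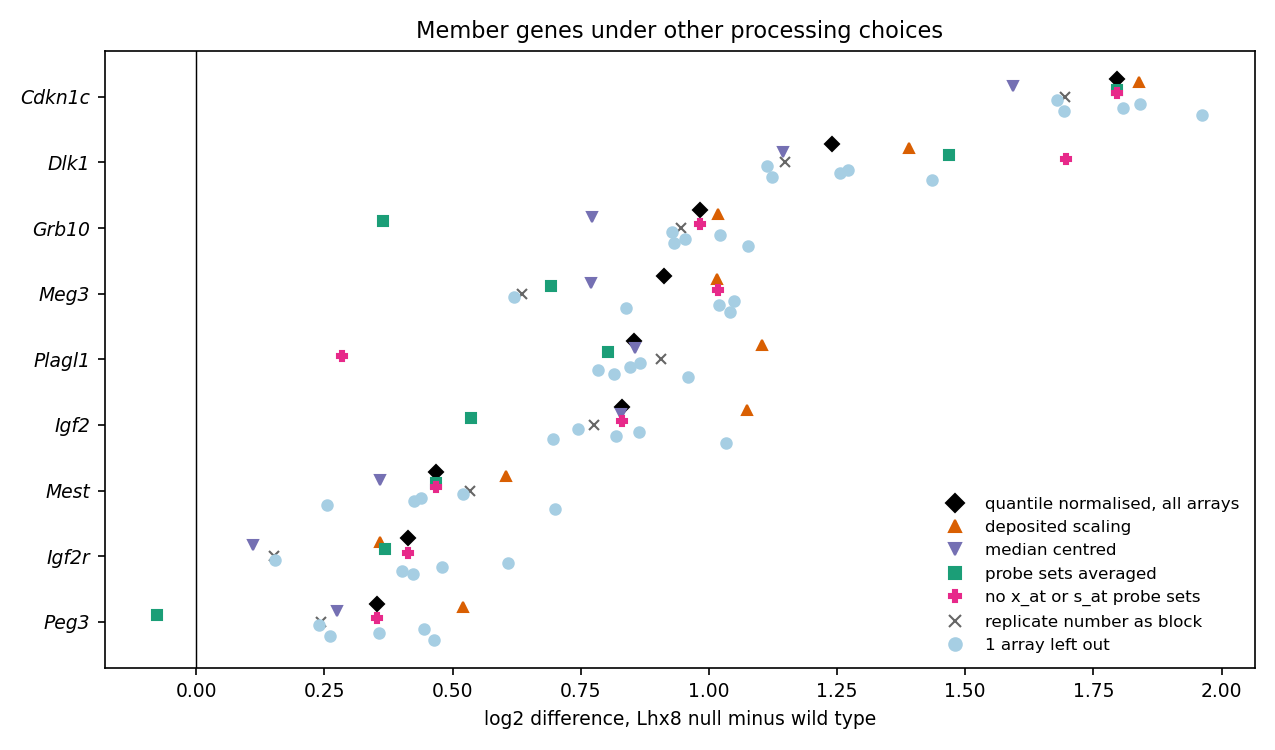
Log2 difference of each member gene (rows) under the main processing (black diamonds), other scalings, other choices of probe set, the replicate number as a block, and with 1 array left out (pale circles). Cdkn1c and Dlk1 stay above 1 throughout, Grb10 drops to 0.36 with probe sets averaged, Plagl1 to 0.28 without _x_at and _s_at probe sets, and Peg3 crosses 0 to -0.077 with probe sets averaged. The Peg3 average includes 2 probe sets with signals of at most 16.4 and 6.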

How the data were processed

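RNA pools were measured on 5 arrays. The authors deposited an intensity for every probe set of each array, in linear units, from biotin-labelled target per the labels' protocols. Their 2% trimmed mean was 500 throughout, so a scaling had been applied. The submitters' processing notes name GCOS for the wild type arrays; for the null arrays no software is named, and it is not given in the sources used here. For this work intensities were converted to log2(signal + 16) and quantile normalised, since array medians differed by 0.38. Controls (64 of 45101 probe sets) were dropped. Annotation gave a single symbol to 34945, several to 932 and none to 9160, and 34754 were found in RefSeq (GRCm38.p6), which changed 0 symbols. The brightest probe set stood for a gene, and the dimmest 40% (7277 genes, mean signal under about 150) were not tested.

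Groups and replicate numbers came from the labels, and the wild type pool numbered 1 was not analysed here. Null was compared with wild type by limma 3.58.1 in R 4.3.3 (lmFit, eBayes with trend), adjusting over 10916 genes, or over 45037 probe sets where single probe sets are given, at a threshold of 0.05. The steps were tested on simulated data. The number of arrays, 3 and 2, limits the precision. The members and gene lists were chosen with earlier results of these data known. Named by rule were Lhx8, all members, the 2 nearest profiles of each, the nearest tested neighbours, and up to 4 genes of each other list by smallest p; other list members were named after their values were seen. Alternatives covered scaling, added constant (1 or 64), brightness filter, probe set choice, variance model, threshold, replicate block and single arrays left out. Promoters and microRNAs are from RefSeq. Figures used matplotlib 3.10.9 in Python 3.11.15.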

Additional observations from a re-analysis of the deposited data

How the results depend on the processing

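Across the alternatives Cdkn1c, Dlk1 and Igf2 kept their rise and their side of the threshold as genes, and every member kept its direction except Peg3, at -0.077 with probe sets averaged. That average includes 2 Peg3 probe sets that never exceeded 16.4 and 6. The other sign changes were Igf1r, at -0.053, and Mrpl23, at -0.079, both with median centring. The number of member probe sets called lower went from 0 to 1 with median centring, where all genes called higher went from 2784 to 1720, and that number was 1829 at a threshold of 0.01. With 1 array left out, 1843 to 2918 genes were called higher and 1544 to 2630 lower, the lowest counts being those without wild type replicate 3, and member counts were 5 to 7 higher and 0 lower. The groups share the replicate numbers 2 and 3, and the deviations of same-numbered arrays from their group means correlated at -0.13 and 0.10. With 2 wild type arrays, whose deviations mirror each other, these correlations cannot show whether the numbers are pairs. The numbers were not read as pairs. With the replicate block 7 members were higher and 0 lower, and 12 member probe sets in place of 8 were higher. The set without _x_at and _s_at probe sets was chosen after seeing the data. In the fit over all probe sets without a variance trend, the Igf2 call was lost (adjusted p = 0.0541). With only 2 wild type pools their spread is uncertain, and small differences in members such as Igf2r and Peg3 can be missed. The cause of these changes was not tested.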
